A study of Homo sapiens with 9 samples.

Results

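This comparison set HT-29 cells grown with 10 µM 5-Aza against the same cells grown with 5 µM 5-Aza, and it used 6 of the 9 RNA-Seq libraries of the series. HT-29 cells are an established line from a human adenocarcinoma of the colon. Each dose was given for 5 days to 3 biological replicates, and 3 further replicates received only the solvent (0 µM). All 9 libraries came from this single cell line, with no genetic change between groups, so they describe this line and not other colon cells. The 6 libraries were taken by their dose labels, and expression is given as FPKM (fragments per kilobase of transcript, scaled to the library). The deposited FPKM values are very large, because they are not scaled to the usual library term, and levels are written here in kFPKM, where 1 kFPKM is 1000 FPKM.

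5-Aza (5-aza-deoxycytidine) is a cytidine analog. Cells build it into DNA during S phase, where it traps DNA methyltransferases and so removes CpG methylation over successive divisions. Genes silenced by promoter methylation, such as testis-specific genes, can then be transcribed, and repeat-derived double-stranded RNA can start an interferon response. At higher doses the trapped enzymes also block replication forks and stop cells from dividing.

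At the higher dose, far more genes fell than rose. Of 20085 genes tested with limma, 969 were called down (4.82%) and 26 were called up (0.129%). A gene was called when it changed by more than 2-fold on the log2(FPKM + 1) scale with an adjusted p (Benjamini-Hochberg, over all genes tested) no higher than 0.05. A gene was said to have held when the whole 95% limma interval of its change lay within 2-fold, and 9717 genes did so (48.4%). The other 9373 genes were neither called nor held. Among the 969 genes that fell, 364 were listed at 0 in all 3 libraries at 10 µM. A gene was tested when any of the 6 libraries reached an FPKM of 10. These 364 therefore entered through 5 µM alone and could only fall. Of the same 969, 295 fell below the mean of the 0 µM libraries and 674 did not. Of these 674, 311 were listed at 0 in every 0 µM library and could not go below it, which leaves 363 that could.

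The 10 µM libraries differed more among themselves than the 5 µM libraries. The median SD between replicates, on the log2(FPKM + 1000) scale, was 0.29 at 10 µM and 0.17 at 5 µM. Between 5.58% and 6.33% of genes differed by more than 2-fold between pairs of 10 µM replicates, against 2.91% to 3.27% between pairs at 5 µM. Against the 5 µM mean, the median gene lay lower by 0.32 in replicate 1 and by 0.29 in replicate 3 at 10 µM, but only by 0.06 in replicate 2. The depth estimated from the steps of low values was 14753382, 32497661 and 21572452 fragments in 10 µM replicates 1, 2 and 3, and 35037064 to 40545271 at 5 µM. Most genes were slightly lower at 10 µM, with a median log2 difference of -0.31 over all genes tested. After median-of-ratios scaling this median was -0.08, with 793 genes down (3.95%) and 65 up (0.324%). Of the called genes named below, AGR2, CDK1, CEACAM5, CRELD2, DDX60L, LAMP3, MAGEA3, MANF, MX2, NDRG1, NFKBIA, PDIA4, PPM1D, SPINK4 and TP53INP1 were not called after this scaling. The medians of the 36 gene lists below are to be read against the -0.31 of all genes, or -0.22 with a pseudocount of 1000. Their counts called down are to be read against the 4.82% of all genes called down. All of these depended on level. The median log2 difference was -2.91 under 1000 FPKM and -0.65 from 1000 to 10000 FPKM. It was -0.25 from 10000 to 100000 FPKM and -0.19 above, so a list of low genes has a lower median. The share of genes called down was 1.35% among the 7018 genes with a mean of at least 100 kFPKM and 8.58% among the 3801 genes with a mean under 1000 FPKM. The share that held depended more on level. It was 0% under 1000 FPKM, 9.2% from 1000 to 10000 FPKM, 64.4% from 10000 to 100000 FPKM and 79.5% above, so a list of well expressed genes holds in more members than a list of low genes.

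**Figure D1:**
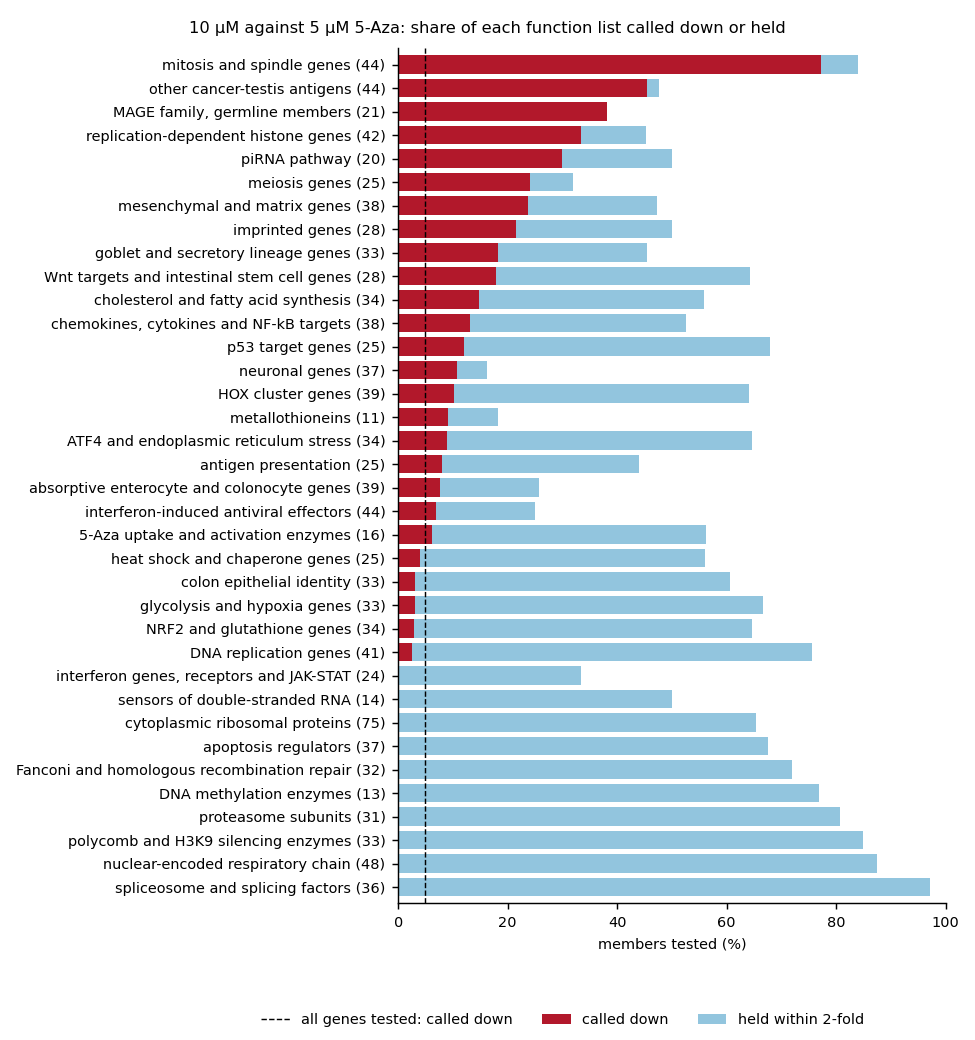
Share of the tested members of each of 36 function lists that were called down (red) or, stacked on it, held within 2-fold (blue) at 10 µM against 5 µM 5-Aza, in percent, with the number tested in parentheses and the share called down over all genes (4.82%) as a dashed line. Mitosis and spindle genes (77.3% called down) and other cancer-testis antigens (45.5%) stand at the top, and spliceosome genes (97.2% held) at the bottom.

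Cells enter mitosis when cyclin B and CDK1 become active. Their genes, with those of the spindle and kinetochore, are transcribed together late in the cell cycle, through the DREAM, B-MYB and FOXM1 complexes. These complexes are known to act through a short element called CHR, written TTTGAA, and through CCAAT boxes. S-phase genes are transcribed earlier, by E2F factors, whose sites are written here as TTTCCCGC, TTTCGCGC, TTTGCCGC or TTTGGCGC. The next 6 sequences, chosen as examples with their values known, show what these letters look like in 3 genes that fell and 3 that held at 10 µM. Each is the 250 bases before the start of the gene in the RefSeq table (GRCh38.p14), 5′ to 3′ on the gene's strand. Capitals mark CHR, CCAAT and E2F letters found on either strand (CCAAT also as ATTGG).
CCNB2: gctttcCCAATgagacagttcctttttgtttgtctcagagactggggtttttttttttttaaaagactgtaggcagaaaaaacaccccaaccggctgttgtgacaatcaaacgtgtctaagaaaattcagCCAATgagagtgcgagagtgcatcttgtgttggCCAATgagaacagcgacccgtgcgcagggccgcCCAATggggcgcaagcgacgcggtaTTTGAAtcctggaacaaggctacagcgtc
PLK1: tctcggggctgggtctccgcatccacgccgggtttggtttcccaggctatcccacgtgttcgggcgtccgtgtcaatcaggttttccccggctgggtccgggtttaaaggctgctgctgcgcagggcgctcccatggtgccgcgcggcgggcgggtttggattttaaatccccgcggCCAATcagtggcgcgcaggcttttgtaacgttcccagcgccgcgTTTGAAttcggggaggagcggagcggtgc
CENPA: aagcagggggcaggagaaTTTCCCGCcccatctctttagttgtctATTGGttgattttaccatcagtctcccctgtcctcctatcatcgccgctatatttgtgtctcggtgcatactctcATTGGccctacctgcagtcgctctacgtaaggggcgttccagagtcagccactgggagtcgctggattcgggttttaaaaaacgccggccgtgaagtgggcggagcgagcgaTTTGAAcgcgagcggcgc
PCNA: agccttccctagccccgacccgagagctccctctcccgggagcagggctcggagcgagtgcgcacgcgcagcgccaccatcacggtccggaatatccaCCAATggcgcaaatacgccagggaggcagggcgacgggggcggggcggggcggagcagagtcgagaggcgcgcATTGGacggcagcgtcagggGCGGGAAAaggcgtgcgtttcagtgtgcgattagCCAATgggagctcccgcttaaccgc
MCM6: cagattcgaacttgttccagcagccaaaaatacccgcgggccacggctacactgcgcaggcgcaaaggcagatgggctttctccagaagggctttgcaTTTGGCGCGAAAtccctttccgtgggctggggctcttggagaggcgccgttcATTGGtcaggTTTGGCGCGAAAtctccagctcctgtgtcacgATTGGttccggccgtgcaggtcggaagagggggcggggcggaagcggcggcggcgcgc
E2F1: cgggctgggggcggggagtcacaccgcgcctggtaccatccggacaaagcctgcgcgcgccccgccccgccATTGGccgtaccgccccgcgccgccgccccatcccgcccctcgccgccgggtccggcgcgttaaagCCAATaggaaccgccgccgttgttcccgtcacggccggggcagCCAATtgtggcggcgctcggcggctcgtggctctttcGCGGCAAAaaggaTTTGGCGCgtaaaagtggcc

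CCNB2 (chr15:59104896-59105145, plus strand), PLK1 (chr16:23678639-23678888, plus strand) and CENPA (chr2:26785806-26786055, plus strand) carry the CHR letters 29, 29 and 18 bases before the start. All 3 were called down. PCNA (chr20:5126623-5126872, minus strand), MCM6 (chr2:135876444-135876693, minus strand) and E2F1 (chr20:33686386-33686635, minus strand) carry E2F letters and no CHR, and all 3 held. CENPA carries E2F letters as well, 232 bases before the start. In MCM6 the E2F letters of both strands overlap each other. RefSeq promoters were matched for 36 of the 44 mitotic genes and 33 of the 41 replication genes, with the first listed promoter taken for each of 27305 symbols. CHR letters were present in 16 of the 36 mitotic promoters (44.4%), in none of the 33 replication promoters, and in 13.6% of all promoters of the same length. E2F letters were present in 13 replication promoters (39.4%), in 2 mitotic promoters (5.56%) and in 2.79% of all promoters. CCAAT was present in 75.0%, 54.5% and 33.0% in the same order of mitotic, replication and all promoters. Within the mitotic list, CHR letters were present in 14 of 29 matched promoters of genes called down (48.3%) and in 2 of 7 of genes not called (28.6%). These are matches of letters in a window and not measured binding.

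Mitosis and spindle genes fell as a group at 10 µM. Of 44 genes tested, 34 were called down, 0 were called up and 3 held. Their median log2 difference was -1.49, or 1.18 below the median of all genes. All 3 values at 10 µM lay below all 3 values at 5 µM for 43 of the 44 genes, a pattern seen in 25.3% of all genes tested. The reverse pattern, with all 10 µM values above, was seen in 4.37% of all genes and in none of the 44. The fall was present in every 10 µM library, with a median deviation from the 5 µM mean of -1.49 in replicate 1, -1.17 in replicate 2 and -1.50 in replicate 3 on the log2(FPKM + 1000) scale. All 34 genes called down also lay below their mean at 0 µM. For 31 of the 44, all 3 libraries at 10 µM were below all 3 at 0 µM. The share of all genes with this pattern against 0 µM was not counted, so how unusual this is cannot be read from it. In RNA from whole cultures, fewer cells in mitosis and less of these RNAs per cell cannot be told apart.

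Genes for the cyclins that drive entry into mitosis were called down. CCNB2, cyclin B2 (GRCh37 chr15:59397325-59417244), was at 146, 178 and 181 kFPKM at 5 µM and at 38.6, 45.5 and 37.9 at 10 µM, while the 0 µM libraries held 271, 220 and 166. It was 4.13-fold lower at 10 µM (log2 difference -2.05, SE 0.15, adjusted p = 0.00197 by limma). The treated groups were far apart and the 10 µM replicates lay close together. CCNB1, cyclin B1, went from 159, 190 and 192 to 52.8, 86.2 and 49.5 kFPKM (log2 difference -1.56). CCNA2, cyclin A2, had a log2 difference of -1.61 and CDK1, the kinase bound by these cyclins, a smaller one of -1.21. The CDK1 values at 10 µM, 34.8, 24.9 and 25.6 kFPKM, lay within the range of 14.5 to 49.1 at 0 µM. CDC25C, the phosphatase that activates CDK1, showed the largest fall of the list. It was at 18.7, 23.3 and 17.9 kFPKM at 5 µM and at 2.14, 4.59 and 3.77 at 10 µM (log2 difference -2.57, adjusted p = 0.00936 by limma). Its relative CDC25B held, with 340, 331 and 348 kFPKM at 5 µM and 215, 264 and 223 at 10 µM.

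Mitotic kinases and their regulators moved in the same direction. PLK1, polo-like kinase 1 (GRCh37 chr16:23688977-23701688), was at 87.2, 94.3 and 96.2 kFPKM at 5 µM and at 34.7, 38.4 and 41.2 at 10 µM, and was 2.43-fold lower (log2 difference -1.28, adjusted p = 0.00478 by limma). All 3 values at 10 µM lay under the lowest value at 0 µM, 102 kFPKM. AURKA, the kinase of the spindle poles, fell by 1.43 and BUB1, a kinase of the spindle checkpoint, by 2.03 on the log2 scale. AURKB, the kinase of the chromosomal passenger complex, was not called, with 22.0, 22.8 and 21.7 kFPKM at 5 µM and 18.8, 17.1 and 10.1 at 10 µM. FOXM1, a transcription factor of mitotic genes, was itself lower, at 65.6, 74.4 and 80.3 kFPKM at 5 µM and 25.5, 37.8 and 30.1 at 10 µM (log2 difference -1.25).

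Listed genes of the kinetochore, of spindle motors and of mitotic exit were called down too, but most related genes outside the list were not. CENPA, the histone H3 variant of centromeres, went from 43.5, 56.8 and 55.6 to 8.97, 16.2 and 7.10 kFPKM (log2 difference -2.35, SE 0.32, adjusted p = 0.00958 by limma). NUF2, a kinetochore protein, fell by 2.09 on the log2 scale. Among kinesins, KIF14 fell by 2.18 and KIF2C by 1.86, whereas KIF11 was not called at -0.92. UBE2C, a ubiquitin-conjugating enzyme of the anaphase-promoting complex, was at 161, 164 and 159 kFPKM at 5 µM and at 38.3, 47.0 and 33.0 at 10 µM, 4.13-fold lower. The 5 µM values of UBE2C agreed closely, and the 10 µM values stayed far below them. TOP2A, which untangles sister chromosomes, fell by 1.61, and MKI67, the gene of the Ki-67 antigen, by 1.43. The 10 genes not called were AURKB, BUB3, CDC25B, CDCA3, INCENP, KIF11, MAD2L1, SGOL1, SPAG5 and TTK. Their log2 differences ran from -0.96 for SGOL1 to -0.47 for BUB3.

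The number of mitotic genes called depended on single libraries. After median-of-ratios scaling 30 of the 44 were called down. Without 5 µM replicate 1, 2 or 3 the count was 16, 11 and 4, and without 10 µM replicate 1, 2 or 3 it was 28, 37 and 29. In a limma treat test against a 2-fold change, 3 genes were called.

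**Figure D2:**
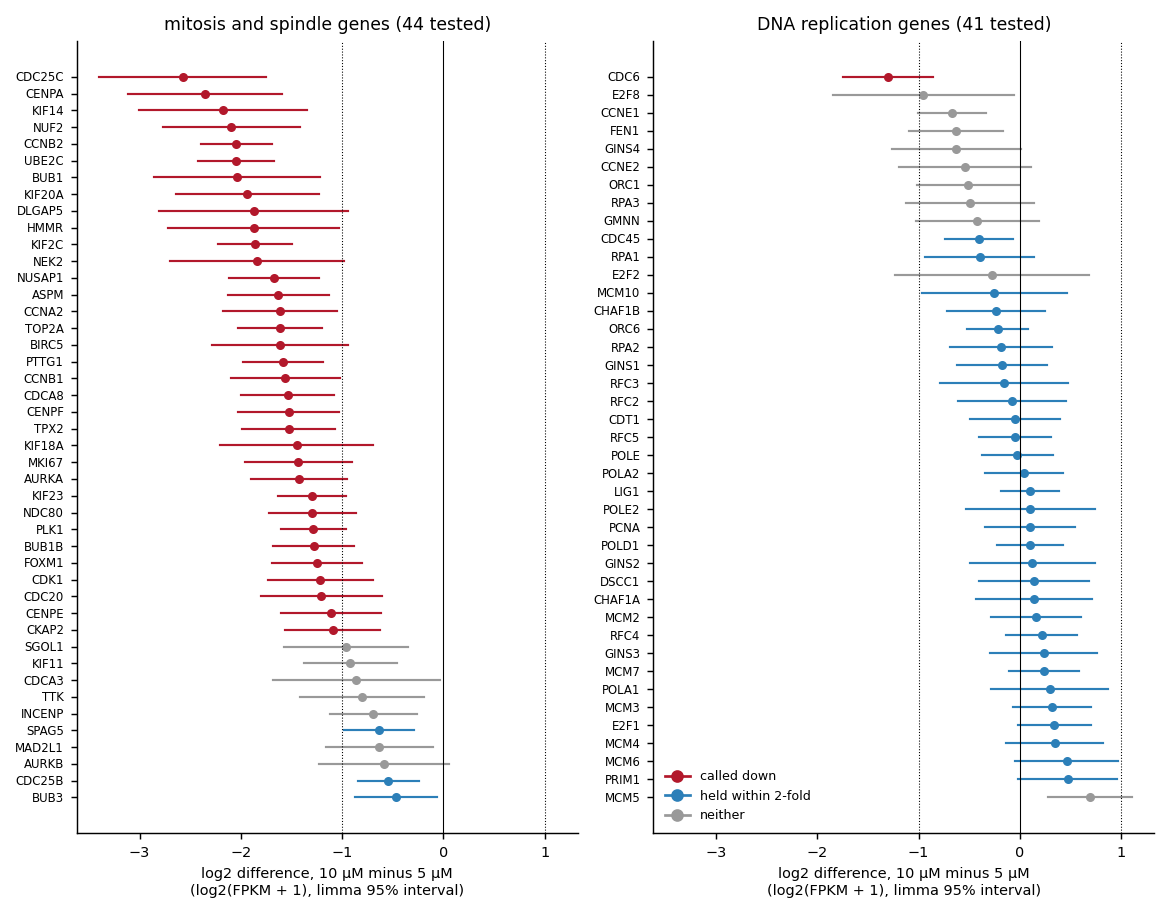
Log2 difference between 10 µM and 5 µM 5-Aza (x axis, log2(FPKM + 1) scale) with the 95% limma interval for each of 44 mitosis and spindle genes and 41 DNA replication genes, coloured by call, with dotted lines at a 2-fold change. Mitotic genes run from -2.57 to -0.47 with none above 0, and replication genes run from -1.30 to 0.69 around 0.

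Most DNA replication genes held at 10 µM, and in most of them the level stayed above that at 0 µM. Of 41 tested, 30 held (73.2%), 1 was called down and 0 were called up. The share held lay between the 64.4% of genes from 10000 to 100000 FPKM and the 79.5% of genes above. Of the 41, 15 lay above 100000 FPKM. The share called down, 2.44%, was near the 4.82% of all genes. Their median log2 difference was -0.05, or 0.27 above the median of all genes. In the 10 µM libraries the median deviation from the 5 µM mean was -0.24, 0.16 and -0.05, while in the 0 µM libraries it was -0.72, -0.89 and -1.09. The 10 µM mean lay below the 0 µM mean in 2 of the 41 genes.

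PCNA, the clamp of DNA polymerases, was at 337, 436 and 387 kFPKM at 5 µM and at 332, 504 and 419 at 10 µM. The groups overlapped, and the 95% interval of the log2 difference ran from -0.34 to 0.55. The MCM genes, which encode the replicative helicase, were not lower in any member shown here. MCM2 was at 138, 145 and 148 kFPKM at 5 µM and at 127, 208 and 156 at 10 µM. MCM5 was at 49.2, 57.6 and 51.6 and then at 72.3, 105 and 80.9, with no overlap but no call (log2 difference 0.69, adjusted p = 0.0677 by limma). E2F1, the transcription factor of this group, was at 77.7, 77.5 and 64.6 kFPKM at 5 µM and at 82.5, 106 and 90.1 at 10 µM, against 18.1, 26.4 and 21.7 at 0 µM.

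CDC6 was the exception among replication genes. It encodes the factor that loads the MCM helicase onto origins and lies at GRCh37 chr17:38444131-38460909. Its level was 239, 230 and 299 kFPKM at 5 µM and 94.0, 130 and 89.1 at 10 µM, a 2.47-fold difference (log2 difference -1.30, SE 0.19, adjusted p = 0.0107 by limma). CCNE1, cyclin E1, which acts at the start of S phase, was not called, with 49.5, 59.1 and 52.5 kFPKM at 5 µM and 32.9, 33.7 and 34.4 at 10 µM. The call of CDC6 was lost when any single 5 µM replicate was left out.

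Repair genes gave no call. Of 32 genes of the Fanconi pathway and homologous recombination, which repair forks blocked by DNA-protein adducts, 23 held (71.9%) and 0 were called, with a median log2 difference of -0.16, against -0.31 for all genes. Over all genes 4.82% were called down, and 64.4% of genes from 10000 to 100000 FPKM held. BRCA1 was at 64.7, 73.6 and 67.5 kFPKM at 5 µM and at 49.7, 61.3 and 49.8 at 10 µM. FANCD2 was at 33.3, 30.9 and 33.1 and then at 19.1, 20.8 and 21.1, and was not called (log2 difference -0.67, adjusted p = 0.0539 by limma).

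Replication-dependent histone genes encode the histones made in S phase. Of 42 tested, 14 were called down and 5 held, with a median log2 difference of -1.21. The count was 4 without 5 µM replicate 3, 5 without 5 µM replicate 2, 6 without 5 µM replicate 1, 8 without 10 µM replicate 3 and 19 without 10 µM replicate 2. HIST1H1C, a linker histone, was at 501, 558 and 625 kFPKM at 5 µM and at 139, 186 and 156 at 10 µM (log2 difference -1.81, adjusted p = 0.00345 by limma). HIST1H2BK was at 1062, 1244 and 1272 and then at 393, 694 and 430. Most of these transcripts have no poly(A) tail and many have near-identical copies, so their values are uncertain.

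Germline genes also fell. These genes are normally transcribed in testis or ovary and are kept silent elsewhere by promoter methylation. Of the 4 germline lists, which together hold 110 distinct genes tested, 40 genes were called down, 7 held and 57 were listed at 0 in all 3 libraries at 0 µM. Of the 40, 24 were listed at 0 in every 0 µM library and could not go below it. Of the other 16, 5 had a 10 µM mean below the 0 µM mean. Of the 40, 15 were listed at 0 in all 3 libraries at 10 µM. Those 15 entered the test through their 5 µM libraries alone and could only fall.

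The piRNA pathway silences transposons in germ cells. Of its 20 genes tested, 6 were called down (MAEL, DAZL, TDRD1, TDRD6, TDRD9 and TDRD12) and 4 held. The median log2 difference was -2.70, and -1.15 with a pseudocount of 1000. The 250 bases before MAEL and DAZL, with each CG dinucleotide in capitals, show how many sites of CpG methylation such a promoter can hold.
MAEL: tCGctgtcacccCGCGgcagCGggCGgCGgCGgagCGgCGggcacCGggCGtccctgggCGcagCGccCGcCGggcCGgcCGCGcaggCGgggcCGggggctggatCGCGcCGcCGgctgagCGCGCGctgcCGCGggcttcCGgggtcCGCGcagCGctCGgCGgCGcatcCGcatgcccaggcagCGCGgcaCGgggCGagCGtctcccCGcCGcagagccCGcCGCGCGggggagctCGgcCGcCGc
DAZL: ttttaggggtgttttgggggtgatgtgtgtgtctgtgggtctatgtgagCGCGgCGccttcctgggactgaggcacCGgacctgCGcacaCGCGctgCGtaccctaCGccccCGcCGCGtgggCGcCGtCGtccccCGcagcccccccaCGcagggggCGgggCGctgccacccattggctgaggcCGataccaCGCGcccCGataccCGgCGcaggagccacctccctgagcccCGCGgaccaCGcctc

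The MAEL window (GRCh38.p14 chr1:166975332-166975581, plus strand) holds 51 CG dinucleotides and the DAZL window (GRCh38.p14 chr3:16605424-16605673, minus strand) holds 28. The median was 20.5 over the 16 piRNA promoters matched and 11 over all promoters, and it was 8.5 over the 18 MAGE promoters matched. Methylation itself was not measured in these files.

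MAEL encodes maelstrom, a piRNA factor (GRCh37 chr1:166944819-166991451). It was listed at 0 in all 3 libraries at 0 µM, at 156, 197 and 164 kFPKM at 5 µM and at 7.11, 15 and 16.8 at 10 µM. This is a 14.1-fold fall (log2 difference -3.82, SE 0.33, adjusted p = 0.00345 by limma), and the 10 µM values rested on an estimated 25.2, 84.1 and 79.9 fragments. DAZL encodes an RNA-binding protein of germ cells (GRCh37 chr3:16628299-16711813). It was at 21.9, 33.5 and 32.7 kFPKM at 5 µM and at 0.846, 0.669 and 0.158 at 10 µM, the last from an estimated 4.05, 5.06 and 1.01 fragments. Both genes kept some signal at 10 µM in every library, where the 0 µM libraries had none listed. PIWIL4, of the same list, held at 112, 115 and 105 kFPKM at 5 µM and 121, 115 and 115 at 10 µM, and it was at 106 to 118 at 0 µM.

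Genes of the synaptonemal complex, which pairs chromosomes in meiosis, were mixed. Of 25 meiosis genes tested, 6 were called down and 2 held, with a median log2 difference of -1.26, and -0.62 with a pseudocount of 1000. Without any single 5 µM replicate the count was 3. SYCP3 was at 52.7, 80.3 and 70.5 kFPKM at 5 µM and at 4.66, 8.01 and 11.4 at 10 µM, overlapping the 5.05 to 8.33 at 0 µM (log2 difference -3.15, adjusted p = 0.00534 by limma). SYCP2 was at 64.4, 68.2 and 67.2 and then at 31.3, 22.6 and 30.6, still above its highest value at 0 µM, 23.4. SYCE1 was at 2.31, 3.35 and 2.67 kFPKM at 5 µM and was listed at 0 in every 10 µM library. SYCE2, of the same complex, was not called and its groups overlapped, at 11, 5.10 and 8.65 kFPKM at 5 µM and 7.5, 9.5 and 14.3 at 10 µM. TEX12 was not called either.

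MAGE genes encode X-linked cancer-testis antigens. Of 21 germline members tested, 8 were called down and 0 held, and for 16 all 10 µM values lay below all 5 µM values. Over all genes tested, 4.82% were called down and 25.3% had this pattern. Only 9.2% of genes from 1000 to 10000 FPKM held, and many of these members lay at that level. The median log2 difference was -5.18, and -1.61 with a pseudocount of 1000, which is less affected by values of 0. MAGEA4 (GRCh37 chrX:151080967-151093643) was at 50.1, 62.9 and 53.9 kFPKM at 5 µM and at 0.800, 0.760 and 0.897 at 10 µM, 67.7-fold lower (adjusted p = 0.000395 by limma). At 10 µM this was an estimated 2.34, 3.52 and 3.52 fragments. MAGEB2 was at 13.1, 16 and 16.1 kFPKM and then at 2.14, 3.80 and 1.28. MAGEA3, which was transcribed at 0 µM too (45.3, 44.8 and 35.0 kFPKM), was at 57.4, 68.3 and 75.9 at 5 µM and at 25.1, 37.5 and 25.8 at 10 µM. MAGEA3 and MAGEA6 are near-identical copies whose reads can be split between them.

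Among other cancer-testis antigens, 20 of 44 tested were called down and 1 held (CSAG1). The median log2 difference of the list was -5.50, and -1.10 with a pseudocount of 1000. Members listed at 0 in every 10 µM library, such as CTAG2 and PAGE5, entered the test through 5 µM alone and could only fall. PAGE2B (GRCh37 chrX:55101463-55105342) went from 151, 149 and 180 to 6.44, 7.25 and 9.62 kFPKM (log2 difference -4.38, adjusted p = 0.000442 by limma). PAGE5 was at 27.2, 46.0 and 61.7 kFPKM at 5 µM and was listed at 0 in all libraries at 10 µM and at 0 µM. TKTL1, a transketolase-like gene, was at 14.8, 22.2 and 13.0 and then at 0.507, 0.963 and 0.757. GAGE, XAGE and PAGE genes come in near-identical copies, so reads may be split between them. When 5 µM replicate 3 was left out, 7 of these 44 genes, 5 MAGE genes and 3 piRNA genes were called. After median-of-ratios scaling the counts were 20, 7 and 6.

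**Figure D3:**
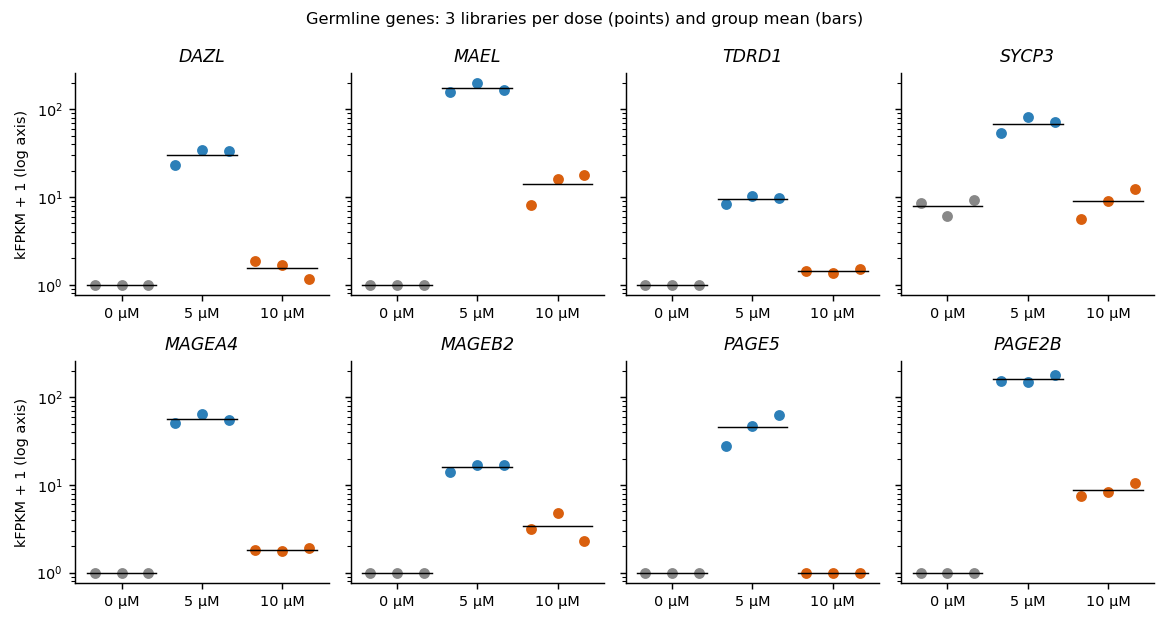
Levels of 8 germline genes in the 3 libraries at 0, 5 and 10 µM 5-Aza (points, kFPKM + 1 on a log axis) with the group mean as a bar. In each gene the 3 libraries at 10 µM lie below the 3 at 5 µM, and MAEL and PAGE2B stay above the 0 µM libraries, which are listed at 0, while PAGE5 is back at 0.

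Antiviral genes of the interferon response had a lower median at 10 µM, but few were called. Interferon binds its receptor, JAK kinases then activate a transcription factor complex that contains IRF9, and this complex turns on antiviral genes. Of 44 antiviral effectors tested, 3 were called down (MX2, DDX60L and LAMP3), 8 held and 33 were neither. The share called, 6.82%, was near the 4.82% of all genes. The median log2 difference was -0.83, or 0.51 below the median of all genes. By library the median deviation from the 5 µM mean was -1.14 and -0.88 in 10 µM replicates 1 and 3 but -0.29 in replicate 2. Without 10 µM replicate 2, 21 of the 44 genes were called down. Without any other single library of the 6, 0 were called. For 30 of the 44, all 3 values at 10 µM lay under all 3 values at 5 µM, against 25.3% of all genes, and the 10 µM mean was below the 0 µM mean in 2 genes.

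MX2, an antiviral GTPase (GRCh37 chr21:42733926-42781320), was at 615, 629 and 551 kFPKM at 5 µM and at 220, 394 and 269 at 10 µM, while the 0 µM libraries held 141, 119 and 70.0. It was 2.09-fold lower (log2 difference -1.06, SE 0.22, adjusted p = 0.0357 by limma), and the call was lost after median-of-ratios scaling. ISG15, a ubiquitin-like modifier, was at 17325, 17152 and 15229 kFPKM at 5 µM and at 4337, 10774 and 8844 at 10 µM, and was not called (log2 difference -1.15, SE 0.47, adjusted p = 0.187 by limma). Its 10 µM values spread over more than their distance to the 5 µM group. IFIT1, which binds foreign RNA, was at 1625, 2109 and 1668 and then at 670, 1372 and 825, and was not called either. The ISRE, the element bound by the interferon complex and searched here as GAAA and GAAA separated by any 2 bases on either strand, was present in 24 of 36 matched effector promoters (66.7%) and in 3.07% of all promoters.

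No sensor or signal carrier of the same response was called. Of 14 sensors of double-stranded RNA, 7 held and 0 were called by limma, with a median of -0.41, and 2 were called without 10 µM replicate 2. IFIH1, the sensor MDA5, was at 464, 623 and 535 kFPKM at 5 µM and at 221, 392 and 227 at 10 µM, without a call. MAVS, the adaptor of these sensors, held at 248, 247 and 273 and then 227, 259 and 206. Of 24 interferon genes, receptors and JAK-STAT genes, 8 held and 0 were called, with a median of -0.58. Without 10 µM replicate 1 or 2, 2 and 3 of these 24 were called. IRF9, the DNA-binding partner in the interferon complex, held at 612, 650 and 595 kFPKM at 5 µM and 467, 617 and 530 at 10 µM.

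**Figure D4:**
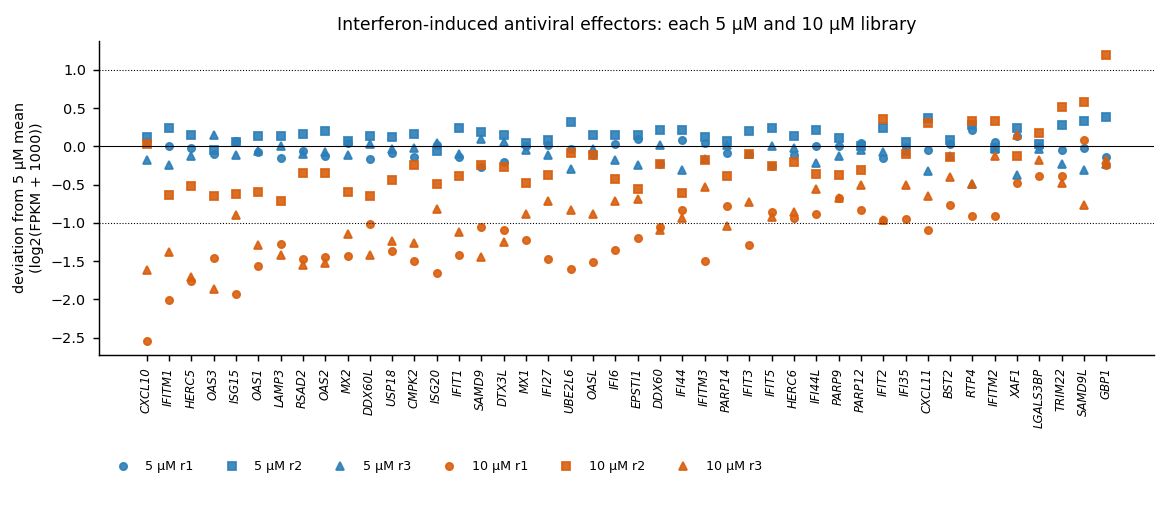
Deviation of each 5 µM library (blue) and each 10 µM library (orange) from the 5 µM mean, on the log2(FPKM + 1000) scale, for 44 interferon-induced antiviral effectors ordered by their mean at 10 µM. Squares mark replicate 2, which at 10 µM lies closer to the 5 µM libraries (median -0.29) than replicates 1 and 3 (medians -1.14 and -0.88).

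Antigen presentation and inflammatory genes were mixed. Of 25 antigen presentation genes, 9 held and 2 were called down, with a median of -0.39. The count was 1 without 5 µM replicate 3 and 4 without 10 µM replicate 2. HLA-G, a non-classical class I gene normally limited to placenta (GRCh37 chr6:29794744-29798902), was at 139, 126 and 193 kFPKM at 5 µM and at 20.9, 24.7 and 21.6 at 10 µM, 6.71-fold lower (log2 difference -2.75, SE 0.19, adjusted p = 0.00197 by limma). Reads of HLA genes can be shared between them. HLA-DPB1 was called from an estimated 5.86, 5.86 and 11.7 fragments at 5 µM and was listed at 0 at 10 µM.

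Of 38 chemokine, cytokine and NF-kB target genes, 5 were called down and 15 held, with a median of -0.62. The count was 0 without 5 µM replicate 3, 1 without 5 µM replicate 1 or 2, and 9 without 10 µM replicate 2. CCL20, a chemokine for T cells and dendritic cells, was at 135, 132 and 150 kFPKM at 5 µM and at 49.7, 84.8 and 44.2 at 10 µM, still above its 6.09 to 8.07 at 0 µM. NFKBIA, the inhibitor that NF-kB induces against itself, was at 533, 602 and 648 and then at 208, 314 and 262 (log2 difference -1.20, adjusted p = 0.0120 by limma). IL32, LTB and CSF1 were called down as well. IL8, a classical NF-kB target, held at 31.2, 35.1 and 34.2 and then 24.9, 49.9 and 30.3 kFPKM.

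**Figure D5:**
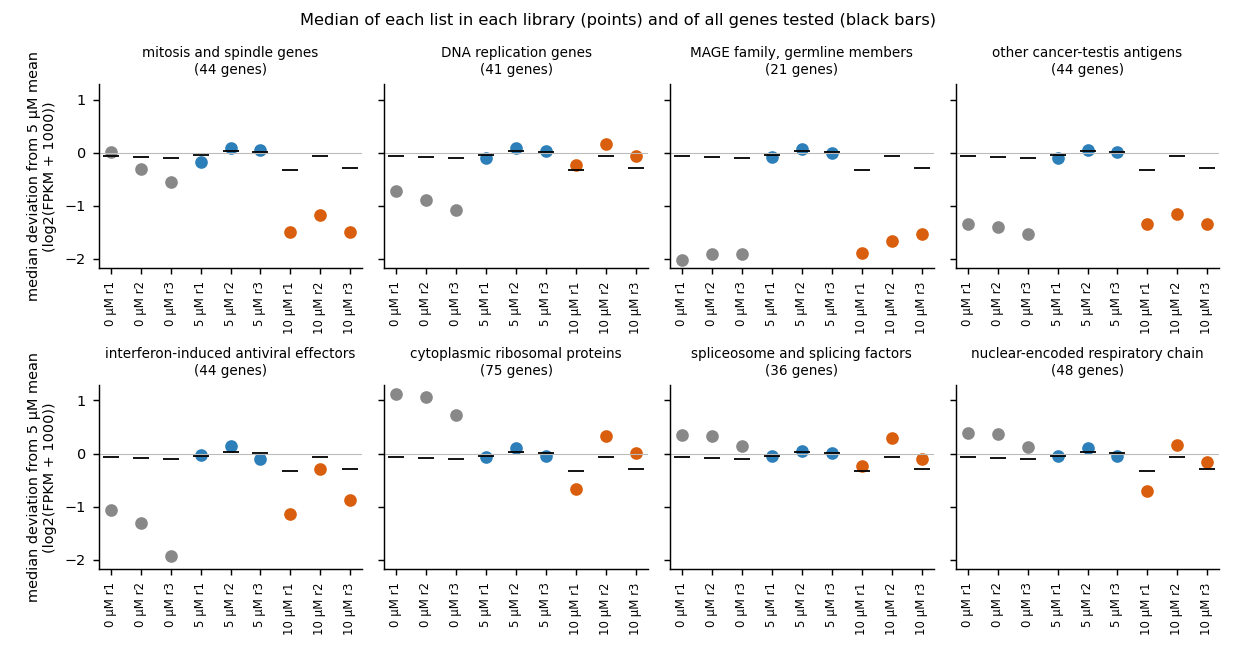
Median deviation from the 5 µM mean in each of the 9 libraries (log2(FPKM + 1000) scale) for 8 gene lists (points) and for all genes tested (black bars). Mitotic genes at 10 µM lie between -1.50 and -1.17, below all 0 µM libraries, while replication genes stay near 0 and ribosomal protein genes spread from -0.68 to 0.34 at 10 µM.

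Genes of basic cell functions, which are highly expressed, gave no call. Of 36 splicing genes, 35 held (97.2%, against 79.5% of genes above 100000 FPKM) and 0 were called, with a median log2 difference of -0.06. Of 48 nuclear genes of the respiratory chain, 42 held (87.5%), and of 31 proteasome genes, 25 held (80.6%), with 0 called in both lists. Their medians were -0.22 and -0.29. SF3B1, a core splicing factor, was at 815, 879 and 846 kFPKM at 5 µM and at 761, 851 and 599 at 10 µM. PSMB5, a catalytic proteasome subunit, was at 673, 717 and 639 and then at 440, 733 and 576. Of 75 ribosomal protein genes, 49 held (65.3%) and 0 were called, with a median of -0.12. Their spread between replicates was large, with a median deviation of -0.68, 0.34 and 0.01 in 10 µM replicates 1, 2 and 3. RPLP0 was at 5568, 5873 and 5911 kFPKM at 5 µM and at 3954, 7549 and 6107 at 10 µM. After median-of-ratios scaling 74 of the 75 held. GAPDH, a common reference gene, followed the same order of replicates, at 4192, 8701 and 6735 kFPKM at 10 µM around 5765, 6399 and 6124 at 5 µM. ZNF311, chosen by the study as a stable gene, held at 16.1, 17.9 and 13.0 and then 23.9, 16.2 and 19.7.

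No DNA methylation enzyme was called, and the chromatin genes HELLS and CDCA7 rose. DNMT1, the methyltransferase that copies methylation after replication and the main target of 5-Aza, was at 126, 125 and 137 kFPKM at 5 µM and at 133, 198 and 150 at 10 µM. Its log2 difference was 0.29 (95% interval -0.10 to 0.69). Of 13 DNA methylation enzymes, 10 held and 0 were called, with a median of -0.14. Of 33 genes of polycomb and H3K9 silencing, 28 held, 0 were called down and 1 was called up, with a median of -0.16. That gene, HELLS (GRCh37 chr10:96305086-96373662), encodes a chromatin remodeler needed to keep DNA methylated. It was at 24.4, 23.2 and 24.5 kFPKM at 5 µM and at 41.8, 51.0 and 55.6 at 10 µM (log2 difference 1.03, SE 0.17, adjusted p = 0.0152 by limma). CDCA7 (GRCh37 chr2:174219548-174233725), which encodes the protein that recruits HELLS to chromatin, was at 42.7, 44.3 and 43.1 kFPKM at 5 µM and at 108, 108 and 87.4 at 10 µM (log2 difference 1.22, SE 0.14, adjusted p = 0.00591 by limma). The groups did not overlap in either gene. They differed at 0 µM, where HELLS was at 13.8 to 17.7, below both doses, and CDCA7 at 111 to 141, above both.

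Of 16 enzymes and transporters that handle cytidine analogs, 8 held and 1 was called down, with a median of -0.41. The call was lost without 5 µM replicate 1 or 3, and 3 were called without 10 µM replicate 2. CDA, cytidine deaminase, which inactivates 5-Aza (GRCh37 chr1:20915579-20945396), was at 381, 323 and 485 kFPKM at 5 µM and at 86.9, 147 and 114 at 10 µM, under the 150 to 178 seen at 0 µM (log2 difference -1.79, adjusted p = 0.00842 by limma). DCK, the kinase that activates 5-Aza, was not called, with 38.0, 61.7 and 51.3 and then 31.1, 54.0 and 25.2. TYMS, thymidylate synthase, was at 38.4, 41.9 and 41.7 and then at 66.5, 62.4 and 61.7, with no overlap but within 2-fold (95% interval of the log2 difference 0.34 to 0.95).

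Stress and survival genes held in shares between 52.0% and 67.6% of each list, against 48.4% of all genes. The share was 64.4% for genes between 10000 and 100000 FPKM and 79.5% for genes above. Many members, such as HSPA5 and FTL, lay above 100000 FPKM, and each list stayed below the 79.5%. Of 25 p53 target genes, 14 held and 3 were called down, with a median of -0.42. The count was 0 without 5 µM replicate 3, 1 without 5 µM replicate 1 or 2 or without 10 µM replicate 3, and 1 after median-of-ratios scaling. CDKN1A, the cell cycle inhibitor p21, was at 448, 501 and 550 kFPKM at 5 µM and at 153, 297 and 201 at 10 µM, against 155 to 169 at 0 µM (log2 difference -1.25, adjusted p = 0.0284 by limma). TP53INP1 and PPM1D were the other members called. HT-29 cells carry mutant p53. Of 37 apoptosis regulators, 25 held and 0 were called by limma, with a median of -0.30, and 1 was called without 10 µM replicate 2. Of 34 ATF4 and endoplasmic reticulum stress genes, 19 held and 3 chaperone genes were called down (PDIA4, CRELD2 and MANF), and 0 were called after median-of-ratios scaling. Their median was -0.46, and leaving out 1 library gave 0 (without 5 µM replicate 3) to 7 calls (without 10 µM replicate 2). Of 34 NRF2 and glutathione genes, 21 held, and GSTM3 was called down, with a median of -0.26. The count was 0 without 5 µM replicate 1, 2 or 3. Of 25 heat shock genes, 13 held, and HSPB8 was called down, with a median of -0.42. That count was 4 without 10 µM replicate 2 and 0 without any other single library.

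Of 34 cholesterol and fatty acid genes, 14 held and 5 were called down, with a median of -0.60. The count was 0 without 5 µM replicate 3, 1 without 5 µM replicate 1 or 2, and 10 without 10 µM replicate 2. INSIG1, which restrains sterol synthesis, was at 369, 469 and 444 kFPKM at 5 µM and at 144, 226 and 145 at 10 µM (log2 difference -1.34, adjusted p = 0.0133 by limma). The desaturase genes FADS1 and FADS2 and the sterol carrier gene STARD4 were called down as well, and these 3 and INSIG1 stayed called after median-of-ratios scaling. Of 33 glycolysis and hypoxia genes, 21 held, and NDRG1 was called down, with a median of -0.31. The count was 0 without 5 µM replicate 3 and without 10 µM replicate 1 or 3.

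Of 33 colon epithelial identity genes, 19 held (57.6%) and 1, CEACAM5, was called down, with a median of -0.27. The count was 0 without 5 µM replicate 1, 2 or 3 and without 10 µM replicate 3. Of the 10 epithelial markers, 3 held and 1, again CEACAM5, was called down, while CDH1, KRT8, KRT18, KRT20, CDX2 and CDH17 were neither. EPCAM, an adhesion protein of epithelia, held at 2585, 3438 and 2766 and then 2262, 3088 and 2570 kFPKM. Of 33 goblet and secretory genes, 9 held and 6 were called down (TFF2, MUC2, MUC4, ZG16, SPINK4 and AGR2), with a median of -0.81. The count was 0 without 5 µM replicate 3, 1 without 5 µM replicate 1 or 2, 12 without 10 µM replicate 2 and 3 with a replicate block. MUC2, the gel-forming mucin of the colon, was at 179, 147 and 190 kFPKM at 5 µM and at 54.0, 65.2 and 42.6 at 10 µM, below its 108 to 139 at 0 µM (log2 difference -1.69, SE 0.19, adjusted p = 0.00580 by limma). AGR2, a protein disulfide isomerase needed to make mucin, was at 5284, 6805 and 5018 and then at 2201, 2927 and 2384. Of 39 enterocyte genes, 7 held and 3 were called down, with a median of -0.91. That count was 0 without 5 µM replicate 1 or 3 and 9 without 10 µM replicate 2. These were ANPEP, a brush border peptidase, and the gut hormone genes GUCA2A and GUCA2B, which stayed above their 0 µM values. GUCA2A was at 110, 133 and 95.9 kFPKM at 5 µM and at 34.9, 49.4 and 31.0 at 10 µM.

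Among 28 Wnt target and stem cell genes, 13 held and 5 were called down, with a median of -0.37. The count was 0 without 5 µM replicate 1 or 3, 1 without 5 µM replicate 2, 3 without 10 µM replicate 1 and 0 with a replicate block. LGR5, a receptor that marks intestinal stem cells, was at 7.13, 7.01 and 7.33 kFPKM at 5 µM and at 1.58, 2.14 and 0.672 at 10 µM. NKD1 and NOTUM, inhibitors that Wnt signaling induces against itself, fell by 2.14 and 1.66 on the log2 scale. AXIN2, another such inhibitor, held at 283, 292 and 282 and then 326, 302 and 248. MYC was at 338, 350 and 384 kFPKM at 5 µM and at 539, 743 and 508 at 10 µM, with no overlap but no call (log2 difference 0.72, adjusted p = 0.0593 by limma).

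Imprinted, HOX and neuronal genes had members that fell, 21.4%, 10.3% and 10.8% of those tested. Over all genes 4.82% were called down, and among genes under 1000 FPKM 8.58%. Of 28 imprinted genes, which are transcribed from a single parental copy, 6 were called down and 8 held, with a median of -1.18, and -0.45 with a pseudocount of 1000. Without a 5 µM replicate the count was 2 or 3. H19, a non-coding RNA (GRCh37 chr11:2016396-2025782), was at 428, 431 and 438 kFPKM at 5 µM and at 55.6, 90.4 and 59.5 at 10 µM, still far above the 0.728 to 1.53 at 0 µM (log2 difference -2.69, SE 0.20, adjusted p = 0.00197 by limma). Its neighbor IGF2 held, at 986, 936 and 1021 and then 655, 757 and 603. Of 39 HOX genes, 21 held and 4 were called down, with a median of -0.27. Leaving out 1 library gave 1 (without 5 µM replicate 3) to 9 calls (without 10 µM replicate 2). HOXC10 went from 26.0, 23.9 and 27.3 to 5.84, 6.09 and 7.19 kFPKM. Of 37 neuronal genes, 4 were called down and 2 held, with a median of -1.66, and -0.18 with a pseudocount of 1000. The median of all genes with that pseudocount was -0.22, so the neuronal list as a whole was not lower than all genes there. Without 5 µM replicate 3 the count was 1, and without 5 µM replicate 1 it was 2. UCHL1, a neuronal ubiquitin hydrolase, was at 119, 116 and 138 kFPKM at 5 µM and at 9.88, 11.7 and 7.87 at 10 µM, 12.8-fold lower (adjusted p = 0.000617 by limma). Of 11 metallothionein genes, 1 was called down and 1 held, with a median of -1.50.

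Of 38 mesenchymal and matrix genes, 9 were called down and 9 held, with a median of -0.93. The count was 2 without 5 µM replicate 3, 5 without 5 µM replicate 1 or 2 and 14 without 10 µM replicate 2. TIMP3, an inhibitor of matrix proteases, was at 26.1, 23.8 and 35.5 kFPKM at 5 µM and at 3.07, 4.17 and 2.38 at 10 µM. SNAI1, a factor of epithelial to mesenchymal transition, was at 59.0, 85.6 and 92.7 and then at 14.5, 21.6 and 18.3. SPARC, a matrix protein, was called from an estimated 2.86, 1.90 and 3.81 fragments at 5 µM and was listed at 0 at 10 µM. Markers of other cell types were listed at 0 or low in most members but not in all. CD68, a macrophage marker, was at 669, 653 and 690 kFPKM at 5 µM and at 192, 345 and 202 at 10 µM. CD79A, a B cell gene, was at 84.3, 70.5 and 82.1 and then at 26.0, 29.8 and 14.2. The fibroblast markers COL1A1 and LUM were at 31.0 to 48.6 kFPKM at 5 µM. The summed level of 9 fibroblast markers was 86.7 to 94.4 kFPKM at 5 µM, 46.3 to 53.8 at 10 µM and 23.4 to 32.6 at 0 µM, and 2 of their 8 members tested were called down. The 7 endothelial markers summed to 20.2 to 28.6 at 5 µM and 7.71 to 8.90 at 10 µM, and 2 were called down. PDGFRA was listed at 0 in all 9 libraries, KDR in all 3 at 10 µM, and PTPRC was at or under 0.983 in every library. Of 9 leukocyte markers tested, 2 were called down, CD68 and CD79A, and the sum (4659 to 5506 at 5 µM and 4750 to 6915 at 10 µM) was mostly LYZ, which colon cells express. Over all genes 4.82% were called down. When any single 5 µM replicate was left out, 0 leukocyte, 0 endothelial and at most 1 of the fibroblast markers were called down. The 10 epithelial markers summed to 35278 to 39943 at 5 µM and 27585 to 48368 at 10 µM, which was mostly KRT8 and KRT18. Their median log2 difference was -0.40. For 5 of the 10 all 10 µM values lay below all 5 µM values, against 25.3% of all genes, and for 0 above. The part of other cells in the results was not tested.

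The 15 genes named by size of fall, among 422 that qualified, included PAGE5, MAGEA4, DAZL, PAGE2B, GAGE8, XAGE1E, XAGE1A and MAEL. A gene could reach the required mean through its 5 µM libraries alone, as PAGE5 did. The ranking was made from the falls themselves and is a description, not separate support. PNMA5 (GRCh37 chrX:152157368-152162660), a gene of the paraneoplastic antigen family, was at 296, 304 and 354 kFPKM at 5 µM and at 10.2, 20.5 and 11.7 at 10 µM (log2 difference -4.55, SE 0.26, adjusted p = 0.00101 by limma). DMRTB1, a transcription factor of testis, was at 24.1, 26.4 and 28.7 and then at 0.354, 0.896 and 0.529. TFDP3, a testis relative of the E2F partner DP1, was at 44.5, 43.4 and 49.1 and then at 2.45, 4.40 and 1.22. FAM127A and H2AFB2 fell too. SNAR-A1 and SNAR-A2, small non-coding RNAs whose copies carry the same values, were at 180, 54.1 and 48.0 at 5 µM and listed at 0 at 10 µM. H2AFB2 and the SNAR, GAGE and XAGE genes exist as several near-identical copies, which makes their single values uncertain.

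Only 9 genes qualified as named rises. Besides HELLS and CDCA7, CLEC3A, a C-type lectin gene (GRCh37 chr16:78056412-78100658), was highest by size of rise. It was at 87.3, 149 and 73.3 kFPKM at 5 µM and at 343, 418 and 392 at 10 µM, near the 421, 417 and 464 of the 0 µM libraries (log2 difference 1.96, SE 0.26, adjusted p = 0.00883 by limma). UGT1A7, a glucuronidating enzyme of the gut, was at 21.2, 14.8 and 14.6 and then at 39.9, 36.1 and 65.5, and P2RY11, a nucleotide receptor, at 60.3, 30.0 and 52.8 and then at 103, 119 and 138. NPDC1, CPNE7, ANKRD24 and HEATR8 were the others. UGT1A7 shares exons with other UGT1A genes, so its reads can be split. Of all 26 genes called up, 10 were small nucleolar or Cajal body RNAs, which are shorter than a sequenced fragment. Of the 26, 8 were listed at 0 in all 5 µM libraries and could only rise.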

How the data were processed

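The series measured RNA in HT-29 cells by paired-end RNA-Seq of 100 base reads, with 3 samples at each of 3 doses and 1 file a sample. The deposited values are FPKM per gene entry, made by the authors with FASTX-Toolkit trimming, TopHat alignment and Cufflinks; the build per the labels was hg19. The library term of the deposited FPKM is not given in the sources used here. It was estimated from the steps of short genes, which gave the fragment estimates; these cover counting error only.

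Repeated symbols were summed, leaving 23284 symbols. Groups came from the dose labels. Genes with an FPKM of at least 10 in any of the 6 samples were fitted on log2(FPKM + 1) with limma 3.58.1 (lmFit and eBayes with a trend) in R 4.3.3. With so large a unit the pseudocount of 1 makes differences of genes at or near 0 very large, so list medians of low genes are also given with a pseudocount of 1000. The script was tested on simulated data. Replicates are biological per the study's methods, and their numbers did not pair samples. The members and lists were chosen with earlier results of these data known.

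Named genes were list members, DNMT1, GAPDH, ZNF311 and SPARC, and the 15 largest falls and up to 10 largest rises. The last 2 sets were ranked on log2(FPKM + 1000) among genes called with both pseudocounts, without overlap between groups and with a mean FPKM of at least 10000. Names starting MIR, SNOR or SCARNA were left out of these sets. Alternatives covered the pseudocount, the filter, the fold threshold, scaling, all 9 samples in one fit, a replicate block, repeated symbols and leaving out each sample, and 2 were added after seeing the data (array weights, and scaling with a pseudocount of 1000). Promoters and gene positions came from RefSeq (GRCh38.p14) and GENCODE (GRCh37) tables, the latter for 19500 symbols. Some list members are not reported here by name.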

Additional observations from a re-analysis of the deposited data

How the results depend on the processing

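The fall of many genes and the rise of few held in direction under every alternative run, but the counts did not hold. Against 26 genes up and 969 down, median-of-ratios scaling gave 65 up with a median log2 difference of -0.075 over all genes, and total scaling gave 42 up. Limma treat against a 2-fold change gave 7 up and 374 down, no fold change threshold 64 up, and a minimum of 10 estimated fragments 13 up. Among alternatives chosen after seeing the data, array weights gave 65 up and 1824 down, and median-of-ratios scaling with a pseudocount of 1000 gave 64 up, 14721 held and a median of -0.050. Leaving out 1 sample gave 12 to 64 genes up and 176 to 1873 down, lowest without 5 µM replicate 3 and highest without 10 µM replicate 2. The cause was not tested. Stability was followed for 60 called genes, mainly the 24 ranked by size of fall or rise and 34 mitotic genes. Of these 60, 13 to 60 stayed called when 1 sample was left out. The treat test kept 16, median-of-ratios scaling kept 56, and 0 reversed. Of the 24 ranked genes, 9 stayed called whichever sample was left out. In the 36 lists 153 distinct members were called down, and most of those outside the mitotic list are not among the 60.

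A fit with a replicate block called 11 genes up and 407 down, and 46 of the 60 stayed called. Same-numbered samples at the 2 doses correlated with r = 0.22, 0.18 and -0.15 in their deviations from the group means over 12856 genes, so the numbers were not taken as a pairing.

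Depth limits low genes. Of 832 falling genes with a fragment estimate, 205 had under 10 estimated fragments in every sample.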

Other observations

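The gene families below were chosen after their values were seen, and their counts are descriptions. Over all genes tested, 4.82% were called down and 48.4% held, with a median log2 difference of -0.31. KIF4A, a chromosome-bound motor of mitosis, was at 28.3, 34.2 and 31.5 kFPKM (1 kFPKM is 1000 FPKM) at 5 µM and at 6.99, 11.9 and 8.41 at 10 µM (log2 difference -1.82, adjusted p = 0.00959 by limma). Of 31 KIF genes outside the list, 5 were called down (16.1%) and 14 held. Of 17 CENP genes outside the list, whose products belong to centromeres, 1 was called down (5.88%) and 9 held. Their median log2 difference was -0.36. Of 6 NCAP genes, 1 was called down and 2 held, and of 3 SKA genes, 0 were called down and 0 held. Of 8 HAUS genes, whose products branch spindle microtubules, 0 were called down and 7 held. Of 521 ZNF genes, 14 were called down (2.69%) and 329 held, with a median log2 difference of -0.18.

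Small nucleolar and Cajal body RNAs were the family with the most rises among those examined. Of 140 SNORA, SNORD and SCARNA genes, 10 were called up and 0 down, against 0.129% of all genes called up. Their median log2 difference was 0.47, against -0.31 for all genes. They are shorter than a sequenced fragment, and the part of this in the result was not tested.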
